A study of Mus musculus with 4 samples.

Results

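Genes of the tumour necrosis factor (TNF) superfamily, of its receptors and of the nuclear factor kappa B (NF-kB) pathway were compared between alveolar macrophages with and without a Cre transgene aimed at Pparg, the gene of the nuclear receptor PPARγ. The 44 genes were taken from a list of names that was made with earlier results of these data known, though the rule uses no expression value, and 42 of them were read on the arrays, out of 18782 genes in all. They comprised 14 ligands, 19 receptors and 9 adaptor or NF-kB genes. The remaining 2, Traf3 and Nfkb1, were not analysed here. Each gene was read from the probe set that names it and no other gene, and Tnfsf13b, which had 2 such sets, from the brighter set.

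All cells came from adult C57BL/6 mice. WT mice carried floxed Pparg alleles only (PPARg fl/fl), and KO mice carried the same floxed alleles together with CD11c-Cre (CD11cCre/PPARg fl/fl), so the floxed alleles are shared by both groups and the WT mice are a control without Cre. The CD11c promoter is active in alveolar macrophages and also in dendritic cells. Each genotype had 2 arrays, and each array held macrophages pooled from 2 mice. Live cells positive for CD45 and Siglec-F, high in CD11c and autofluorescent were sorted. The gate on CD11b differed: it was low for the WT cells, which the labels call mature, and high for the KO cells, which they call arrested and immature. Genotype and sort gate therefore cannot be told apart in any comparison given here.

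The ligands of the TNF superfamily are mostly membrane proteins, some of them shed, that signal as trimers. Their receptors either carry a death domain or recruit TNF receptor-associated factors (TRAFs), and many of them lead to activation of NF-kB transcription factors, which inhibitor of kappa B (IkB) proteins otherwise hold in the cytoplasm. NF-kB in turn induces genes of its own inhibitors, such as Nfkbia and Tnfaip3, which makes these transcripts a feedback arm of the pathway. Alveolar macrophages are a major source of TNF in the airspaces.

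Expression is given as log2 values normalised across arrays, on which a step of 1 is a doubling. Differences are KO minus WT with the standard error (SE) of a limma model fitted to all genes, and a gene was called when its Benjamini-Hochberg adjusted p was under 0.05. Of the 42 genes measured, 12 were called higher and 2 lower in KO, which is 28.6% and 4.76% of them. Among all genes 7.41% were called higher and 6.86% lower. The median difference was 0.23 for the 42 genes and -0.01 for all genes. Both KO arrays lay above both WT arrays for 24 of the 42 genes (57.1%, against 25.3% of all genes) and below them for 7 (16.7%, against 30.0%), while the genotypes overlapped for 11. With 2 arrays against 2, an exact permutation test of a single gene cannot go below a two-sided p of 0.333, so every call rests on the spread that limma shares between genes. Of the 42 genes, 14 lay below the array median of 3.14 on every array. Array values there are compressed, so that a fold change from such a level can be understated.

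**Figure D1:**
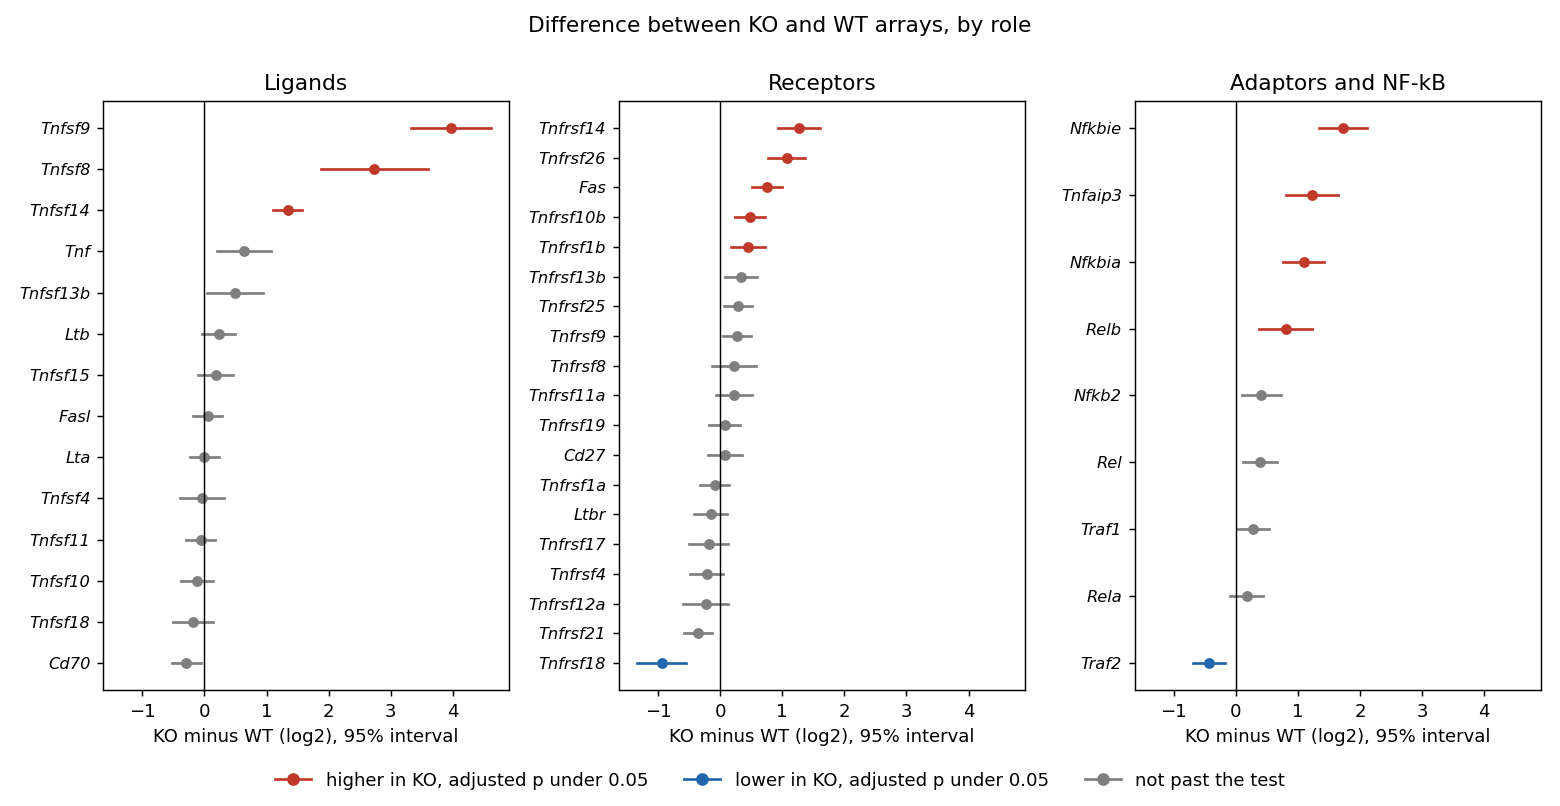
The difference between KO and WT (x axis, log2 scale) is plotted for each of the 42 genes (y axis) in 3 panels by role, with points for the estimate, lines for its 95% interval and colour for the call. Tnfsf9 (3.97) and Tnfsf8 (2.73) lie farthest to the right, Tnfrsf18 (-0.94) farthest to the left, and most of the other genes lie within 1 of no difference.

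Among the ligands, 3 genes rose in KO macrophages: Tnfsf9, Tnfsf8 and Tnfsf14, all of them known chiefly for costimulating lymphocytes. These 3 are 21.4% of the 14 ligands, against 7.41% of all genes called higher. None of the 14 was called lower by limma, against 6.86% of all genes. At an unadjusted p under 0.05 by limma, 5 ligands were higher and 1 lower, beside 2375 and 2631 of all 18782 genes. The median difference of the ligands was 0.12. Tnfsf9, the gene of the ligand for the costimulatory receptor encoded by Tnfrsf9, measured 2.75 and 2.58 on the WT arrays and 7.06 and 6.21 on the KO arrays. The KO arrays were far above the WT arrays, and the gap between the genotypes was several times that between the KO arrays. The difference of 3.97 ± 0.26 (SE; adjusted p = 3.92e-04) was the largest among the 42 genes. Since the WT level lay under the array median, no fold is given for it.

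Tnfsf8, which encodes CD30 ligand, measured 1.69 and 1.74 in WT and 3.85 and 5.05 in KO. Its KO arrays stood apart from each other by more than those of any other called gene of the set, yet both lay above WT. The difference was 2.73 ± 0.35 (adjusted p = 0.00452), 3.33 without KO replicate 1 and 2.13 without KO replicate 2. Tnfsf14, which encodes LIGHT, a ligand of the herpesvirus entry mediator and of the lymphotoxin beta receptor, measured 2.77 and 2.69 in WT and 4.03 and 4.12 in KO. Here the arrays of each genotype lay close together, and the difference was 1.34 ± 0.10 (adjusted p = 5.99e-04). All 3 ligands lay below the array median in WT and above it in KO, so their differences can be understated, and each was called in all 4 fits that left out 1 array. Beside these increases, 7 of 8 markers of monocytes and interstitial macrophages were also higher in KO (87.5%, against 7.41% of all genes). The median difference of the 8 was 3.34. Itgam, counted among the 7, is the gene of CD11b, on which KO cells were sorted high and WT cells low. The summed linear value of the 8, to which the evenly expressed Nr4a1 contributes much, was 2209 to 2478 in WT and 4013 to 4411 in KO. Of 8 dendritic cell markers 2 were higher, with a median difference of 0.13. Their sum was 610 to 809 in WT and 1461 to 1607 in KO, and 96 to 109 in WT and 137 to 228 in KO without Cd24a. Their part in the increases was not tested.

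Tnf itself was well above the array median in both genotypes and did not pass the test. It measured 9.19 and 8.66 in WT and 9.62 and 9.51 in KO. The KO arrays were the higher ones, but the WT arrays differed from each other by nearly as much as the means did. The difference was 0.64 ± 0.18 (95% interval 0.21 to 1.08; adjusted p = 0.0677). It was 0.91 (adjusted p = 0.0106) without WT replicate 1 and 0.38 (adjusted p = 0.146) without WT replicate 2. With a variance trend on intensity the adjusted p was 0.0168.

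Tnfsf13b, which encodes the B cell survival factor BAFF, did not pass the test either. It measured 5.71 and 6.24 in WT and 6.41 and 6.53 in KO. The KO arrays were again above uneven WT arrays, with a difference of 0.49 ± 0.18 (adjusted p = 0.147). This difference was 0.76 without WT replicate 2 and 0.22 without WT replicate 1. It was 0.55 without KO replicate 1 and 0.43 without KO replicate 2. A second probe set of this gene overlapped between genotypes and differed by 0.29 ± 0.27. The other 9 ligands stayed within 0.29 of no difference. Cd70, the ligand of Cd27, measured 2.00 and 2.04 in WT and 1.70 and 1.76 in KO and differed by -0.29 ± 0.10 (adjusted p = 0.11). Tnfsf15, Ltb, Fasl and Lta had differences from 0.00 (Lta) to 0.23 (Ltb), and Tnfsf4, Tnfsf10, Tnfsf11 and Tnfsf18 from -0.19 (Tnfsf18) to -0.04 (Tnfsf4). Of the 14 ligands, 7 lay below the array median on every array: Tnfsf4, Tnfsf10, Tnfsf15, Fasl, Cd70, Lta and Ltb. A small difference at that level says little about these genes.

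**Figure D2:**
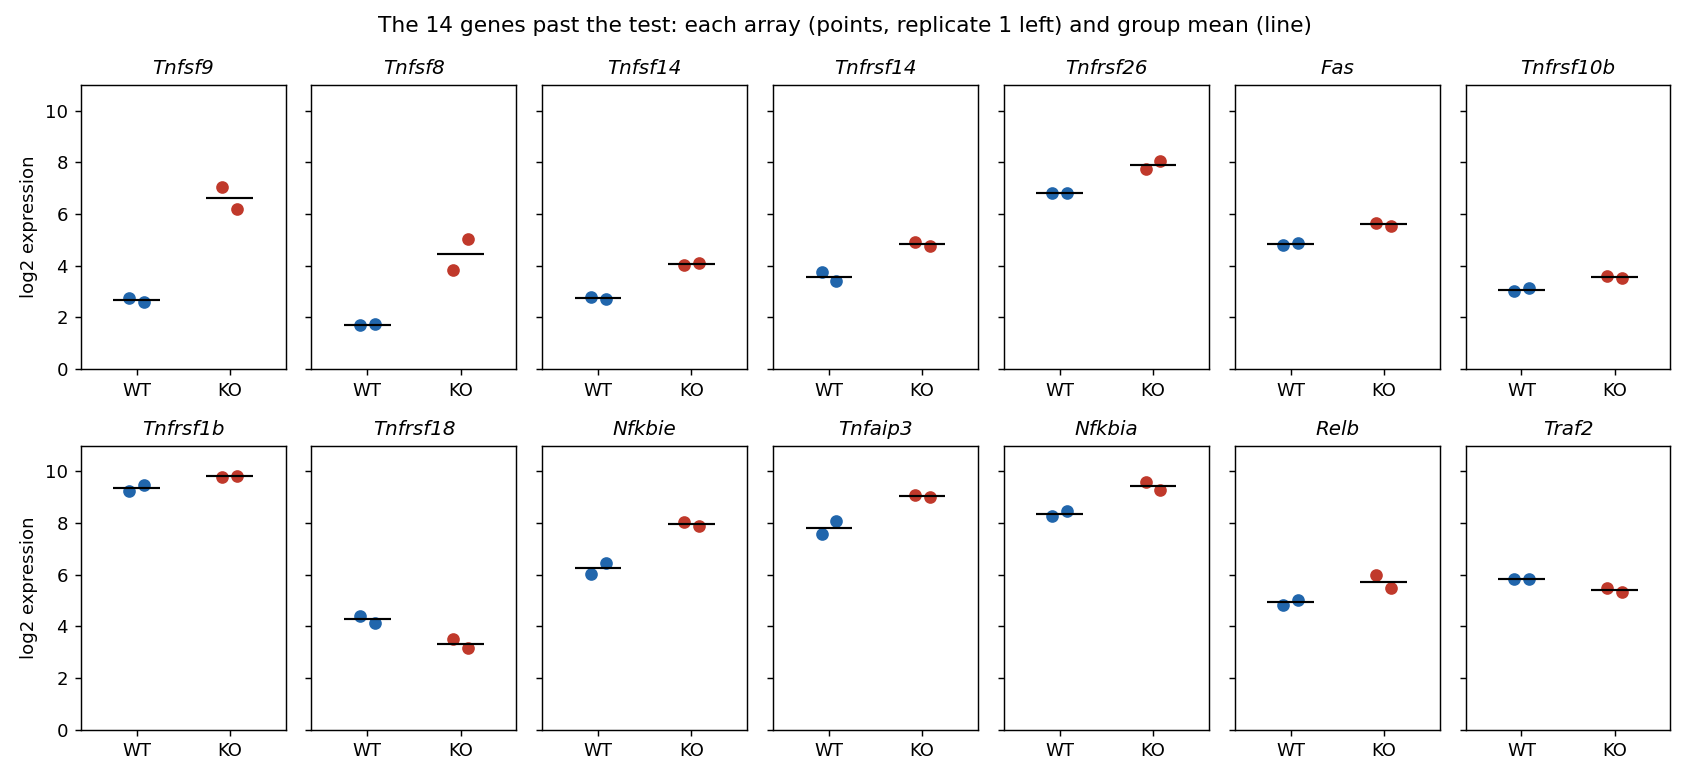
Log2 expression (y axis) of the 14 genes past the test on each array, with WT in blue and KO in red, replicate 1 on the left of each pair and the group mean as a line. The arrays of the genotypes do not overlap in any panel, and the KO arrays of Tnfsf8 (3.85 and 5.05) and Tnfsf9 (7.06 and 6.21) are the most spread.

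Of the 19 receptors, 5 rose (26.3%, against 7.41% of all genes), 1 fell (5.26%, against 6.86%) and 13 did not pass the test. The median difference of the receptors was 0.22. The 5 increases ran from 0.45 to 1.27 on the log2 scale. Tnfrsf14, which encodes the herpesvirus entry mediator, a receptor for LIGHT, measured 3.74 and 3.40 in WT and 4.91 and 4.77 in KO. The genotypes were clearly apart, with a difference of 1.27 ± 0.14 (adjusted p = 0.00243), a 2.42-fold increase. Tnfrsf26, a mouse receptor of this family that lacks a death domain, measured 6.82 on both WT arrays and 7.75 and 8.04 in KO, a difference of 1.07 ± 0.12 (adjusted p = 0.00294).

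Fas, the death receptor for Fas ligand, measured 4.80 and 4.89 in WT and 5.65 and 5.55 in KO and rose by 0.75 ± 0.10 (adjusted p = 0.0048). These 3 receptors were called in all 4 fits with 1 array left out. The remaining increases were slight. Tnfrsf10b, the mouse receptor for the death ligand TRAIL, measured 3.02 and 3.12 in WT and 3.58 and 3.52 in KO, a difference of 0.48 ± 0.10 (adjusted p = 0.0241), and was called in none of the fits with 1 array left out (adjusted p from 0.0506 to 0.125). With the intensity trend its adjusted p was 0.051. Tnfrsf1b, the TNF receptor without a death domain, measured 9.25 and 9.46 in WT and 9.79 and 9.83 in KO. Its difference of 0.45 ± 0.11 lay just under the threshold (adjusted p = 0.0471), and the adjusted p was 0.194 when WT replicate 1 was left out, 0.16 when KO replicate 1 was and 0.187 when KO replicate 2 was.

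The gene of the other TNF receptor, Tnfrsf1a, which carries a death domain, measured 8.44 on both WT arrays and 8.30 and 8.40 in KO. Its difference was -0.09 ± 0.10, with a 95% interval from -0.33 to 0.15 and an adjusted p of 0.641. Whether the differences of Tnfrsf1a and Tnfrsf1b differ from each other was not tested.

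Tnfrsf18 was the receptor that fell. It encodes GITR, a costimulatory receptor known from regulatory T cells, and measured 4.42 and 4.13 in WT and 3.51 and 3.15 in KO. Every KO array was below every WT array, and the difference was -0.94 ± 0.16 (adjusted p = 0.0125). Without KO replicate 2 it was -0.76 with an adjusted p of 0.0683. Tnfrsf21, which encodes death receptor DR6, was also lower on both KO arrays (8.96 and 9.01) than on the WT arrays (9.35 on each) and narrowly missed the threshold. Its difference was -0.36 ± 0.09 (adjusted p = 0.0563). The adjusted p was 0.0333 after removing dim genes and 0.00359 with the intensity trend. It stayed above the threshold after cyclic loess normalisation (0.0571) and with robust moderation (0.0562). With 1 array left out the difference ran from -0.384 to -0.333.

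Several receptors were dim, most of them known from lymphocytes. Tnfrsf8, Tnfrsf9, Tnfrsf17, Tnfrsf19, Tnfrsf25 and Cd27 lay below the array median on every array, and their differences ran from -0.18 (Tnfrsf17) to 0.29 (Tnfrsf25). Tnfrsf13b, a receptor for BAFF, measured 4.82 and 4.97 in WT and 5.21 and 5.26 in KO (0.34 ± 0.10; adjusted p = 0.0904). Tnfrsf11a, which encodes the osteoclast receptor RANK, differed by 0.22 ± 0.12, Tnfrsf12a by -0.23 ± 0.15, Tnfrsf4 by -0.22 ± 0.11 and the lymphotoxin beta receptor gene Ltbr by -0.15 ± 0.11. None of these 5 passed the test.

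Ligand and receptor were next read side by side for 18 pairs known to bind. Both partners were called in 1 pair, Tnfsf14 and Tnfrsf14, and both were higher. In 3 pairs only the ligand was called, in 5 only the receptor, and in 9 neither. These counts are of pairs and not of separate genes, since some genes occur in more than 1 pair. Tnfrsf1b was the called receptor for both Tnf and Lta, and Tnfsf14 was also paired with Ltbr, which was not called. Tnfsf9 was higher by 3.97, while its receptor gene Tnfrsf9 went from 2.68 and 2.63 in WT to 2.93 and 2.92 in KO, a difference of 0.27 ± 0.09 (adjusted p = 0.124). Tnfsf8 was higher by 2.73, while Tnfrsf8 measured 2.49 and 2.19 in WT and 2.70 and 2.43 in KO and overlapped between genotypes. The transcripts of both receptors stayed under the array median. In the opposite case, Fas was called while Fasl read 1.62 and 1.68 in WT and 1.66 and 1.73 in KO. Tnfrsf10b was likewise called while Tnfsf10 read 2.57 and 2.47 in WT and 2.47 and 2.34 in KO. Tnfrsf18 fell, and Tnfsf18, its ligand, differed by -0.19 ± 0.13 (adjusted p = 0.443) around the array median.

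**Figure D3:**
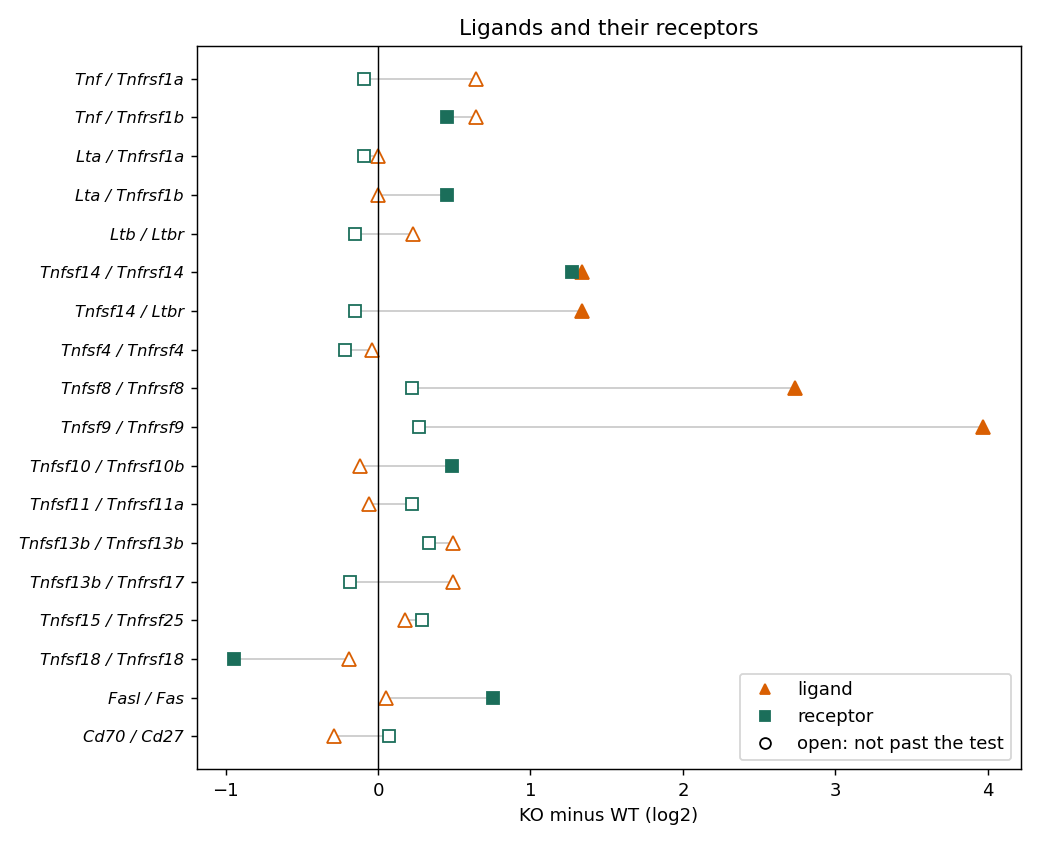
Difference between KO and WT (x axis, log2 scale) for 18 pairs of ligand (triangles) and receptor (squares), with filled symbols for genes past the test. Tnfsf14 and Tnfrsf14 lie together at 1.34 and 1.27, whereas Tnfsf9 (3.97) and Tnfsf8 (2.73) lie far from their receptors (0.27 and 0.22).

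The adaptor and NF-kB genes leaned most to one side. Of the 9 measured, 4 rose (Nfkbie, Tnfaip3, Nfkbia and Relb), 1 fell (Traf2) and 4 did not pass the test, with a median of 0.41. The shares called were 44.4% higher and 11.1% lower, against 7.41% and 6.86% of all genes. Both KO arrays exceeded both WT arrays for 8 of the 9 (88.9%, against 25.3% of all genes). The ninth, Traf2, was below WT on both (11.1%, against 30.0%). The 3 largest differences of the group were those of inhibitor genes. Nfkbie, which encodes IkB epsilon, measured 6.04 and 6.46 in WT and 8.05 and 7.90 in KO. This difference of 1.73 ± 0.16 (adjusted p = 0.00119), a 3.31-fold increase, was the only one of this group that passed a test against a difference of 0.5.

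Tnfaip3, the ubiquitin-editing enzyme A20 that ends NF-kB signalling, measured 7.56 and 8.07 in WT and 9.09 and 9.001 in KO. The WT arrays were the uneven ones, and the difference was 1.23 ± 0.17 (adjusted p = 0.00604; 0.0557 without KO replicate 1). Nfkbia, which encodes IkB alpha, measured 8.26 and 8.45 in WT and 9.59 and 9.30 in KO, a difference of 1.09 ± 0.14 (adjusted p = 0.00382) called in each fit with 1 array left out.

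The promoters of the 3 inhibitor genes are shown because these genes rose together and are known NF-kB targets. Sequences are from RefSeq, build GRCm38.p6, which holds promoter windows for 37 of the 44 genes. Each is written 5′ to 3′ on the strand of the gene and ends at the base before the start site. Capitals mark matches on either strand to GGNNNTTCC, a loose form of the NF-kB site in which N is any base, with overlapping matches run together. Nfkbia lies at chr12:55492648-55492897 on the minus strand, Nfkbie at chr17:45555580-45555699 on the plus strand and Tnfaip3, at the window with more matches of its 2, at chr10:19015411-19015530 on the minus strand.
Nfkbia: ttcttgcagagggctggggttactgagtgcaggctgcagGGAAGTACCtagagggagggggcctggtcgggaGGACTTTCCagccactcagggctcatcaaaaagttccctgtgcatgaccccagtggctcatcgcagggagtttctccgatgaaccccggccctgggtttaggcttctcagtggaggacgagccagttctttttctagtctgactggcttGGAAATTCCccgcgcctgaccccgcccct
Nfkbie: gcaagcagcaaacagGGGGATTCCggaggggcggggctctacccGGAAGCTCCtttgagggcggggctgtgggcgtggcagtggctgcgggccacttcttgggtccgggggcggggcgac
Tnfaip3: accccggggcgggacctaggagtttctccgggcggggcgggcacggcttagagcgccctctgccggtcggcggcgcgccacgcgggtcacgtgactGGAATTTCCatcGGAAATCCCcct

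In Nfkbia the matches began 211, 178 and 29 bases before the start site, in Nfkbie 105 and 76 and in Tnfaip3 24 and 12. The match at 178 in Nfkbia reads GGACTTTCC, a strict form that is a subset of the loose motif. The loose motif occurred in 18.5% of all 32851 windows of 300 bases and the strict form in 0.344%. By gene, with any window counted, 13 of the 37 matched genes (35.1%) held the loose motif, against 20.7% of 27025 genes, and 3 (8.11%) held the strict form, against 0.4%. Nfkb2 and Ltb were the others with the strict form. By call, the loose motif was present in 3 of the 8 higher genes with a window, in 1 of the 2 lower genes and in 8 of the 26 that did not pass. By role, the 3 higher genes that held it were Nfkbia, Nfkbie and Tnfaip3, the lower gene was Traf2, and 2 of 4 adaptor or NF-kB genes, 4 of 13 receptors and 2 of 9 ligands not past the test held it. The AP-1 motif TGANTCA, searched the same way, occurred in 8 of the 37 genes (21.6%, against 8.97% of all genes), among them Tnfsf14, Fas, Nfkbie and Tnfaip3. The nuclear receptor half-site AGGTCA occurred in 4 (10.8%, against 18.1%), none of them a called gene. These are matches of letters in a short window and not measured binding.

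Of the subunits, Relb alone passed the test. Relb, the partner of the Nfkb2 product in the alternative pathway, measured 4.83 and 5.03 in WT and 5.98 and 5.49 in KO. Its difference of 0.80 ± 0.18 (adjusted p = 0.03) had an adjusted p of 0.113 without WT replicate 1 and 0.103 without KO replicate 1. Nfkb2 measured 7.06 and 7.34 in WT and 7.68 and 7.54 in KO (0.41 ± 0.13; adjusted p = 0.0966, and 0.0418 with the intensity trend). Its adjusted p was 0.0828 after cyclic loess normalisation and 0.0953 with robust moderation. With 1 array left out its difference ran from 0.268 to 0.551. Rel measured 9.56 and 9.78 in WT and 10.1 and 10.0 in KO (0.39 ± 0.11; adjusted p = 0.0809, and 0.00916 with the intensity trend). For Rel the adjusted p was 0.0839 after cyclic loess normalisation and 0.0801 with robust moderation. Its difference ran from 0.274 to 0.499 with 1 array left out. Rela, the main activating subunit, measured 7.52 and 7.33 in WT and 7.58 and 7.61 in KO (0.17 ± 0.11; adjusted p = 0.392). For each of these 3 genes both KO arrays were above both WT arrays, and for Rela the WT arrays differed from each other by more than the means did.

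Of the adaptors, Traf2, which couples TNF receptors to NF-kB and restrains the alternative pathway, measured 5.84 on both WT arrays and 5.49 and 5.32 in KO. Its fall of -0.43 ± 0.10 (adjusted p = 0.0434) was not called in any fit with 1 array left out (adjusted p from 0.0833 to 0.193) or after cyclic loess normalisation (0.0683). Traf1, itself an NF-kB target, lay below the array median throughout and differed by 0.27 ± 0.11 (adjusted p = 0.169).

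Arrays of the same genotype also differed within this group. WT replicate 2 was above WT replicate 1 for 7 of the 9 genes (77.8%, against 49.4% of all genes), and KO replicate 1 was above KO replicate 2 for 7. The median gap between the WT arrays was 0.20 for these genes, against 0.12 over all genes in absolute size. Tnf ran the other way among the WT arrays, with replicate 1 higher by 0.53.

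Genes of the same pathway outside the 42 were read from lists made by function, with earlier results of these data known. Of the 89 measured, 29 were called higher (32.6%, against 7.41% of all genes) and 5 lower (5.62%, against 6.86%), while 55 missed the threshold. The shares given below for each list stand beside these same shares of all genes. Their median difference was 0.08.

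Of 9 genes of further IkB proteins and their helpers, 5 were higher (55.6%) and 4 not past the test, with a median of 1.25. Nfkbiz, an atypical nuclear IkB, measured 6.28 and 6.01 in WT and 8.57 and 8.34 in KO and was higher by 2.31 ± 0.14 (adjusted p = 2.65e-04). Ier3 (1.77 ± 0.17), Nfkbid (1.28 ± 0.12) and Bcl3 (1.25 ± 0.13), with Nfkbid and Bcl3 also atypical IkB genes, followed. The fifth, Tnip3, a partner of A20 (1.88 ± 0.29), was named after its value was seen. None of the 9 was called lower by limma, nor at an unadjusted p under 0.05.

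Of 16 genes acting next to the receptors, 4 were higher (25%), 3 were lower (18.8%) and 9 did not pass. Cflar, which blocks caspase-8, was higher by 1.10 ± 0.10 (adjusted p = 0.00121), the ubiquitin ligase gene Birc3 by 0.74 ± 0.11 and Tank by 0.85 ± 0.13. Tradd, the adaptor of the death-domain TNF receptor, was lower by -0.74 ± 0.11 (adjusted p = 0.00858). Traf5 (0.61 ± 0.15) was the other higher gene and Tab3 (-0.70 ± 0.13) and Map3k5 (-0.47 ± 0.09) the other lower genes, named after their values were seen. Of 12 genes of the IkB kinases and of linear ubiquitin chains, 1 was higher and 1 lower. Each is 8.33% of the list, near the 7.41% higher and 6.86% lower among all genes. Ikbke measured 4.04 and 3.92 in WT and 5.31 and 4.99 in KO (1.17 ± 0.13; adjusted p = 0.00278), and Map3k14, the kinase of the alternative pathway, was lower by -0.44 ± 0.10 (adjusted p = 0.0289). Otulin (-0.36 ± 0.10) and Tbk1 (-0.32 ± 0.09) did not pass.

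Of 13 genes that control TNF mRNA and TNF shedding, 2 were higher (15.4%) and 1 lower (7.69%). Zfp36l1 was higher by 1.83 ± 0.11 (adjusted p = 2.65e-04) and Zc3h12a, the ribonuclease regnase-1, by 0.80 ± 0.13 (adjusted p = 0.0107), while Zfp36l2 was lower by -0.71 ± 0.14 (adjusted p = 0.0215). All 3 encode proteins that promote mRNA decay. Rhbdf1, a partner of the TNF sheddase, differed by -0.41 ± 0.11 (adjusted p = 0.0666). Among 9 further TNF receptor genes, 2 were higher (22.2%). These were Tnfrsf23 (0.51 ± 0.10, adjusted p = 0.0185) and Tnfrsf22 (0.44 ± 0.10, adjusted p = 0.0338), both of them decoy receptors closely related to Tnfrsf26. Probes of such close relatives can share signal, which was not tested. Of the 2 further ligands measured, Cd40lg and Eda, neither was called by limma, nor at an unadjusted p under 0.05.

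Of 28 genes known to be inducible by NF-kB, 15 were higher (53.6%) and 13 not past the test, with a median of 0.57. The smallest p-values were those of Csf1, Ptgs2, Cxcl10 and Cxcl1. Cxcl1, a neutrophil attractant, measured 4.36 and 5.32 in WT and 8.92 and 8.60 in KO (3.92 ± 0.30; adjusted p = 6.75e-04). None was called lower by limma, nor at an unadjusted p under 0.05. Among the genes that did not pass were Icam1 (-0.08 ± 0.10), Ccl3 (0.10 ± 0.15) and Nos2 (-0.12 ± 0.12), named after their values were seen.

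**Figure D4:**
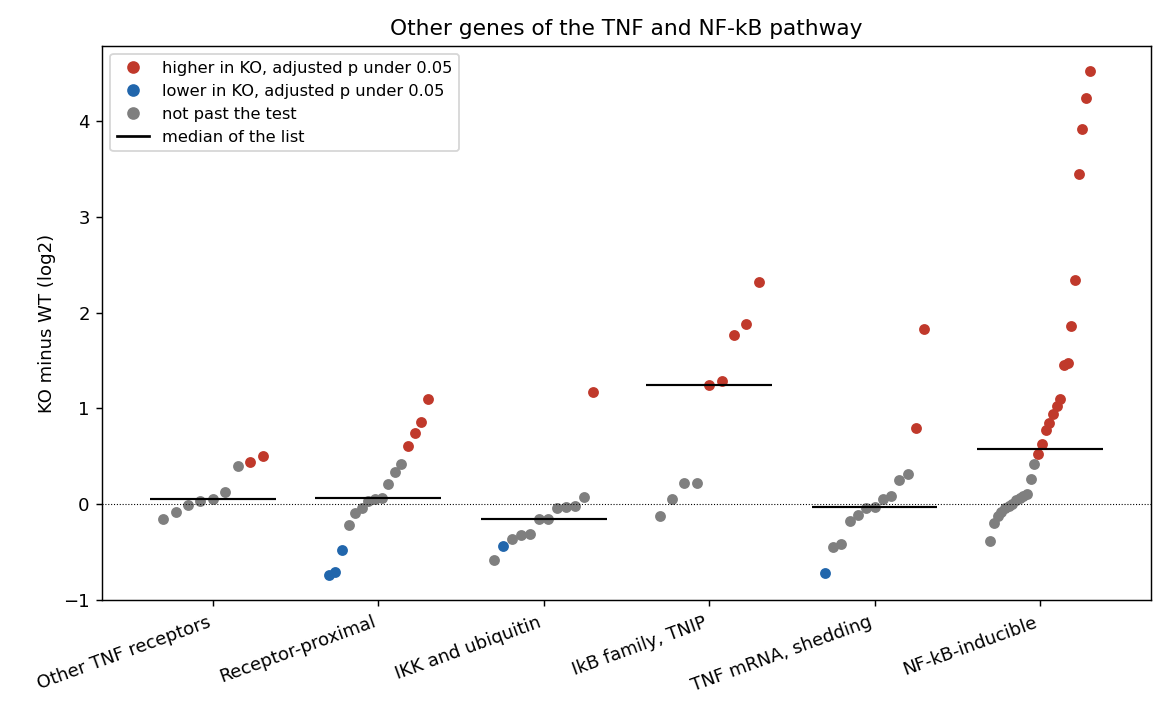
Difference between KO and WT (y axis, log2 scale) for pathway genes outside the 42, grouped by function along the x axis and ordered by size within a group, with the median of each group as a line and colour for the call. The IkB family (median 1.25) and the NF-kB-inducible genes (0.57) lie above the kinase and ubiquitin group (-0.15).

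The cells' identity and the content of other cell types were read from marker lists. Chil3, Plet1 and Atp6v0d2, typical of alveolar macrophages, lay between 10.8 and 11.2 on all 4 arrays. However, 5 of 12 alveolar macrophage markers, among them Siglecf and Cidec, were lower in KO. The median difference of the 12 was -2.34. Both KO arrays were below both WT arrays for 9 of them (75%, against 30.0% of all genes). Pparg itself measured 9.69 and 9.75 in WT and 9.59 and 9.73 in KO. The position of its probes in the gene was not given, and these values check nothing about the deletion. Siglec-F and CD11b were themselves used in the sort. Among the monocyte and interstitial macrophage markers, Itgam (the gene of CD11b) was higher by 5.76 and the complement genes C1qb and C1qc by 6.48 and 4.84. Of the dendritic cell markers, Cd209a and Cd24a were higher. Clec9a measured 4.56 and 5.58 in WT and 5.79 and 6.99 in KO, a difference of 1.32 that did not pass the test (limma, adjusted p = 0.125), while Zbtb46 and Flt3, which define these cells, stayed between 2.48 and 3.16 on all arrays. Of 7 general macrophage markers, Csf1r was higher by 0.84 and Fcgr1 (-0.66), Mertk (-0.48) and Mrc1 (-0.44) were lower. Their sums were 8765 to 8831 in WT and 8617 to 8741 in KO, and without Mrc1 7213 to 7310 and 7496 to 7597. Of 7 neutrophil markers, S100a8 was higher by 1.92 and Csf3r lower (-1.54). At an unadjusted p under 0.05 by limma, 3 were higher and 2 lower. Their sums were 196 to 238 in WT and 161 to 164 in KO. Without Csf3r the direction turned, with sums of 48 to 60 in WT and 103 to 112 in KO. None of 10 markers of epithelium, endothelium and fibroblasts was called by limma, with 0 higher and 2 lower at an unadjusted p under 0.05, and their sums were 208 to 315 in WT and 286 to 299 in KO. In bulk samples of this kind, more cells of a type and more RNA per cell cannot be told apart, and the part of these marker changes in the differences of all the other genes was not tested.

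For lymphocytes, which use several of these ligands, 2 of 9 T cell markers were higher, Il7r (3.12 and 3.45 in WT, 7.73 and 6.84 in KO) and Cd4 (by 0.42). The list summed to 47 to 52 in WT and 162 to 255 in KO, and without Il7r to 38 to 41 in WT and 43 to 47 in KO. Cd3d and Cd3g, which define T cells, lay between 1.73 and 2.31 on all arrays. Cd3e, the gene of another CD3 chain, measured 3.025 and 2.91 in WT and 3.08 and 3.20 in KO. None of these was called, but both KO arrays were above both WT arrays for each. That held for 6 of the 9 T cell markers (66.7%, against 25.3% of all genes). None of 7 B cell markers was called by limma, nor at an unadjusted p under 0.05. Their sums were 370 to 376 in WT and 404 to 452 in KO. Without Cd22 the sums were 49 to 56 in WT and 48 to 52 in KO. Of 7 natural killer cell markers, Prf1 was lower. At an unadjusted p under 0.05 by limma, 2 were higher (Klrk1 and Nkg7) and 1 lower. Their sums were 33 to 41 in WT and 37 to 38 in KO, and without Prf1 26 to 31 and 32 to 33. Of 11 genes of stress and tissue dissociation, 2 were higher (Egr1 by 1.26 and Junb by 0.50), and the summed value of 8106 to 8127 in KO lay within the 7340 to 8310 of WT. Fos, Dusp1 and Atf3 of this list differed by -0.03, 0.06 and -0.22 and did not pass the test.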

How the data were processed

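Alveolar macrophages of 2 genotypes were profiled on 4 Affymetrix arrays, 2 per group, each a pool of 2 mice. The deposited values are on the log2 scale, 1 for each probe set. Per the submitters' processing notes, the authors used RMA and R 2.15.2. A setting of RMA or a genome build is not given in the sources used here. The 28371 probe sets ran from 0.958 to 12.11. Sorted by size, values at the same rank differed between arrays by no more than 0.012, so a shift of most transcripts in one direction would be removed. The number of arrays limits the precision. Within a genotype the arrays correlated with r = 0.995 (WT) and 0.996 (KO) across genes, and between genotypes with 0.967 to 0.975.

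The 21158 probe sets with a single symbol in the platform annotation were kept, and each of 18782 genes was read from its brightest set on average, with no intensity filter. The genotypes were compared by limma 3.58.1, run in R 4.3.3 (lmFit and eBayes on group alone, two-sided, Benjamini-Hochberg over all genes). The procedure was tested on simulated data. The replicate numbers did not pair the samples (correlation of the deviations -0.0173). The genes and lists were chosen with earlier results of these data known. All 42 genes could be named, up to 4 genes with the smallest p of each pathway list, and defining genes of each marker list. Promoter windows (250 bases before to 50 after the start site) came from RefSeq. The alternatives were repeated quantile normalisation, cyclic loess, the mean of a gene's probe sets, a filter on dim genes, an intensity trend, robust moderation, a test against a difference of 0.5, a replicate block and leaving out each array.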

Additional observations from a re-analysis of the deposited data

How the results depend on the processing

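Over all genes 1391 were higher and 1289 lower. The 3 ligands, 5 receptors and 4 NF-kB genes called higher kept these counts, and the 1 lower receptor too, under repeated quantile normalisation, robust moderation, the mean of a gene's probe sets and cyclic loess. Leaving out 1 array gave 726 to 1227 higher and 647 to 1057 lower genes, 3 to 4 ligands higher, 3 to 4 receptors higher and 0 to 1 lower, and 2 to 4 NF-kB genes higher and 0 lower. The pathway lists then had 16 to 26 genes higher and 0 to 4 lower, against 29 and 5. Higher calls over all genes fell to 726 without KO replicate 1 and 816 without KO replicate 2, and lower calls to 656 and 647, and to 809 without WT replicate 1. The pathway lists then had 16 higher without KO replicate 1 and 19 without KO replicate 2. The receptors had 3 higher without KO replicate 1, KO replicate 2 or WT replicate 1, and the NF-kB genes 2 without KO replicate 1. The test against a difference of 0.5 called 498 genes higher and 336 lower, 2 receptors higher and 0 lower, 1 NF-kB gene higher and 0 lower, and 15 pathway genes higher and 0 lower; it demands more than a difference from 0 by construction. With dim genes left out 2 receptors and 9 pathway genes were lower, and with the intensity trend 2 receptors were lower. Traf2, the lower adaptor, was lost after cyclic loess (0 lower). With the replicate block 0 adaptors were lower, 4 ligands and 4 receptors higher, and 1309 genes higher and 1168 lower overall. The block gave adjusted p = 0.0375 for Tnf, now past the threshold, and 0.0577 for Tnfrsf1b and 0.0636 for Traf2, no longer past it, and it changed no other call among the 42 genes. Of the 14 called genes, 8 were called in every fit with 1 array left out. Among genes near no difference the sign turned when 1 array was left out: Tnfsf4 ranged from -0.225 to 0.151, Lta from -0.04 to 0.041 and Cd27 from -0.0375 to 0.1795. Other causes of these changes were not tested. With 2 arrays per genotype, fits without 1 array take the spread of the lone array from the other genotype. No result lay in a group of 4 or more arrays, so single arrays could not be tested as outliers.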
